A study of Homo sapiens with 24 samples.

Results

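The comparison described here follows the replicate number in SBC-3 cells, a human small cell lung cancer line, transfected with antisense oligonucleotides. It sets the 3 libraries labelled replicate 1 against the 6 libraries labelled replicate 2 or 3, within the groups ASO-NEAT1-1047, ASO-NEAT1-1473 and ASO-Ctrl. These 9 libraries, chosen by their labels alone, are the oligonucleotide arm of a series of 24 RNA-seq libraries. The other 15 received siRNAs: SFPQ knockdown (siSFPQ-2, siSFPQ-3), NONO knockdown (siNONO-3, siNONO-4) and a control (siCtrl), with 3 libraries each, at the same dose and time. ASO-NEAT1-1047 and ASO-NEAT1-1473 each hold cells given 1 antisense oligonucleotide against the noncoding RNA NEAT1 (labelled as NEAT1 knockdown), and ASO-Ctrl holds cells of the same line given a control oligonucleotide (labelled WT). The cells took 10 nM of oligonucleotide by reverse transfection with Lipofectamine RNAiMAX and were harvested after 72 h for poly(A)-selected RNA. The labels say neither that replicates are separate cultures nor what a replicate number marks, and the p-values therefore describe variation among these 9 libraries, which may be technical. With 1 library per number in each group, a shared culture, day or preparation cannot be told apart from anything else the libraries of a number have in common.

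Some background places the genes that stood out. ATF4 is a transcription factor whose protein is made when the kinases of the integrated stress response, which sense amino acid shortage, misfolded protein, viral RNA or haem lack, slow general translation; its targets import amino acids, build serine, asparagine and cysteine, and charge tRNAs. Cytosolic ribosomal proteins are translated from mRNAs with a shared pyrimidine tract at their start, under control of mTORC1, a kinase that also responds to amino acids. NEAT1 is a nuclear noncoding RNA around which paraspeckles form, with SFPQ and NONO as core proteins, and its level responds to many stresses.

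The libraries held 9717221 to 14886353 counts assigned to genes. Replicate 1 libraries held 10919056 on average and those of replicates 2 and 3 held 12583483, and their ranges overlapped (exact permutation p = 0.333, exchanging libraries within groups, two-sided). Levels are given as CPM, counts scaled to 1000000 per library. Of 19 markers of other cell types, 15 stayed at or under 1 CPM and CD3E and HBB were at 0. The other 4 were TP63 (61.3 to 90.4 CPM), COL1A1 (13.3 to 34.4 CPM), ACTA2 (2.83 to 5.22 CPM) and ALB (up to 1.01 CPM), and their part in the results was not tested. The markers' summed level was 107.1 to 109.7 CPM in replicate 1 and 93.3 to 116.6 CPM in replicates 2 and 3. Against the label of small cell lung cancer, the neuroendocrine markers INSM1, NCAM1 and UCHL1 were at 0. NEUROD1 (up to 7.30 CPM) and SYP (up to 24.9 CPM) were present, and YAP1, which marks a non-neuroendocrine subtype, stood at 325 to 450 CPM. In bulk RNA, fewer cells of a type and less RNA per cell cannot be told apart.

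NEAT1 (chromosome 11, 65422774 to 65445540, hg38) was lower in replicate 1 than in replicates 2 and 3 of its own group in all 3 groups. Replicate 1 held 248.2 CPM in ASO-NEAT1-1047, 185.1 CPM in ASO-NEAT1-1473 and 219.4 CPM in ASO-Ctrl. In the same group order replicate 2 held 336.9, 208.3 and 293.6 CPM, and replicate 3 held 323.6, 236.8 and 394.5 CPM. Across groups the values overlapped, since replicate 1 of ASO-NEAT1-1047 lay above both later libraries of ASO-NEAT1-1473. With group as a covariate the log2 fold change of replicate 1 over replicates 2 and 3 was -0.44 (SE 0.10, 95% interval -0.65 to -0.23, edgeR quasi-likelihood adjusted p = 0.0143). An exact permutation test of the within-group difference gave p = 0.037, the smallest that 27 assignments allow. Both tests, here and below, treat libraries of the same number as independent, although these deviated from their group means together. The p-values and SEs therefore do not measure the spread between replicate numbers and may overstate the evidence. The adjusted p was 0.07 without ASO-Ctrl replicate 1, 0.0927 without ASO-NEAT1-1047 replicate 1, 0.129 without the ASO-NEAT1-1047 group, 0.164 when all 24 libraries were fitted and 0.231 without the group term, at log2 fold changes of -0.34 to -0.46. The counts give 1 value per gene, so the short and long NEAT1 transcripts were not told apart.

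MALAT1, the abundant nuclear noncoding RNA encoded beside NEAT1, did not follow the same split. It held 2212, 2313 and 1762 CPM in replicate 1 of ASO-NEAT1-1047, ASO-NEAT1-1473 and ASO-Ctrl, against 1702, 1759 and 1403 CPM in replicate 2 and 2178, 2231 and 2192 CPM in replicate 3. Replicate 2 was lowest in every group, and the fit called replicate 3 above replicate 2 (log2 fold change 0.45, SE 0.06, adjusted p = 3.02e-06) but not replicate 1 against the others (0.13, SE 0.17, adjusted p = 0.708). Of the paraspeckle proteins, SFPQ was at 0.12 (SE 0.05, adjusted p = 0.139), NONO at -0.13 (SE 0.05, adjusted p = 0.127) and PSPC1 at -0.10 (SE 0.06, adjusted p = 0.282), so none of these core members was called.

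**Figure D1:**
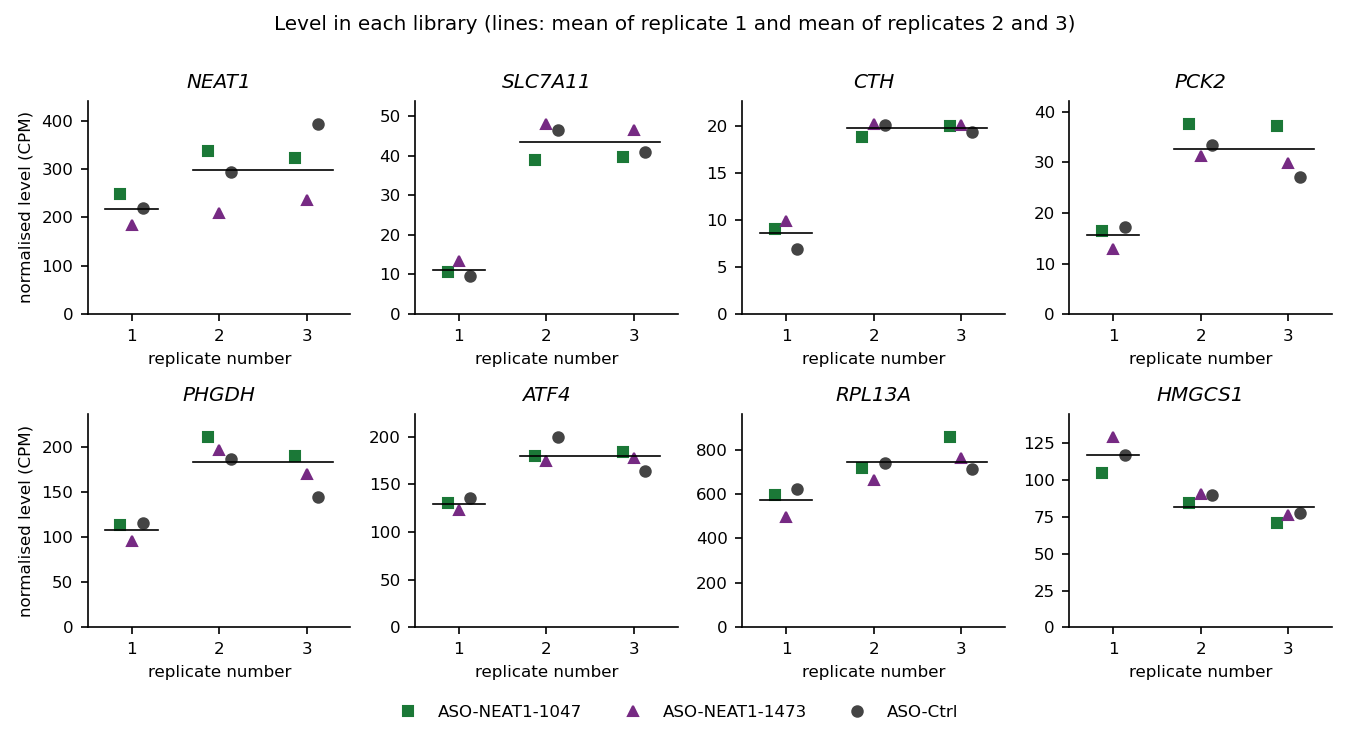
Normalised level (CPM, linear axes from 0) of 8 genes in each of the 9 libraries, by replicate number; the marker shape gives the group, and the horizontal lines are the mean of the 3 replicate 1 libraries and the mean of the 6 libraries of replicates 2 and 3. SLC7A11, CTH, PCK2, PHGDH, ATF4 and RPL13A lie lower in all replicate 1 libraries than in any other library, HMGCS1 lies higher, and for NEAT1 the order holds within each group but not across groups.

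Across the transcriptome 1583 of 14549 genes tested (10.9%) were called at an adjusted p under 0.05: 956 were higher in replicate 1 (6.57%) and 627 lower (4.31%). Most differences were small: 24 called genes were at least 2-fold higher and 95 at least 2-fold lower, and the median over all genes was -0.01 on the log2 scale. Replicate 1 lay below both other replicates in all 3 groups for 1754 genes (12.1%) and above both for 2124 genes (14.6%). The number of calls was 311 without ASO-NEAT1-1047 replicate 1 and 311 without ASO-NEAT1-1473 replicate 1, but 1261 without ASO-Ctrl replicate 1. Without replicate 2 of ASO-NEAT1-1047, ASO-NEAT1-1473 or ASO-Ctrl it was 1809, 1464 and 1875. Without replicate 3 of the same groups it was 1019, 1052 and 1654. The calls thus depended more on the replicate 1 libraries of the NEAT1 oligonucleotide groups than on that of the control. The split between higher and lower calls moved with the scaling: it was 716 higher and 769 lower with upper quartile factors, and 609 and 659 with an offset for GC content in each library. Of the 1583 calls, 979 were also called with the GC offset.

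The genes of the ATF4 response and of amino acid metabolism were lower in replicate 1 as a group. Of 32 tested members 25 fell, where 4.31% of all genes fell, and 0 rose; the list's median log2 fold change was -0.54, against -0.01 over all genes. In 26 members replicate 1 lay below both other replicates in every group, as it did for 12.1% of all genes. The summed level of the list was 2539 to 2699 CPM in replicate 1 and 3398 to 3895 CPM in replicates 2 and 3, with no overlap. The count of fallen members was 19 to 25 over the 23 alternative settings and left-out libraries tried, and 25 with the GC offset.

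Among the amino acid transporters, SLC7A11 fell furthest. SLC7A11 (chromosome 4, 138164097 to 138242349), the exchanger that imports cystine for glutathione synthesis, held 10.7, 13.4 and 9.63 CPM in replicate 1 of ASO-NEAT1-1047, ASO-NEAT1-1473 and ASO-Ctrl. In the same order it held 38.8, 48.1 and 46.6 CPM in replicate 2 and 39.8, 46.6 and 41.1 CPM in replicate 3. All 3 replicate 1 libraries lay below the other 6 without overlap, and the fitted log2 difference was -1.96 (SE 0.10, adjusted p = 2.82e-10). Its partner chain SLC3A2 fell by 0.64 (SE 0.10), the large neutral amino acid carrier SLC7A5 by 0.93 (SE 0.13), the cationic carrier SLC7A1 by 0.44 (SE 0.06) and the glutamine carrier SLC1A5 by 0.48 (SE 0.10). SLC38A2, another carrier of neutral amino acids, was at 0.00 (SE 0.05, adjusted p = 0.977).

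Enzymes that build serine, glycine and cysteine fell too. CTH, which makes cysteine from cystathionine, held 9.11, 9.91 and 6.89 CPM in replicate 1, in the group order above, against 18.9, 20.3 and 20.2 CPM in replicate 2 and 20.1, 20.2 and 19.4 CPM in replicate 3 (log2 fold change -1.21, SE 0.12, adjusted p = 2.86e-06). PCK2, the mitochondrial phosphoenolpyruvate carboxykinase, held 16.4, 12.9 and 17.3 CPM in replicate 1, against 37.7, 31.2 and 33.4 CPM in replicate 2 and 37.1, 29.8 and 27.2 CPM in replicate 3 (-1.07, SE 0.10, adjusted p = 2.86e-06). Neither gene had a replicate 1 library inside the range of the other 6. The serine pathway enzymes PHGDH, PSAT1 and PSPH fell by 0.76 (SE 0.10), 0.65 (SE 0.05) and 0.63 (SE 0.08), and the folate-linked mitochondrial enzymes SHMT2 and MTHFD2 by 0.67 (SE 0.08) and 0.51 (SE 0.07). PYCR1, which makes proline, fell by 0.59 (SE 0.09). CBS, which acts just before CTH, was at -0.05 (SE 0.15) and ALDH18A1, which starts proline synthesis, at 0.09 (SE 0.06), both uncalled.

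ATF4 mRNA itself fell by 0.48 (SE 0.06, adjusted p = 0.000118). It held 130.6, 122.8 and 135.2 CPM in replicate 1, against 180.0, 174.6 and 199.7 CPM in replicate 2 and 183.7, 177.5 and 163.8 CPM in replicate 3. Among the other transcription factors and regulators, ATF5 fell by 0.82 (SE 0.10), the pseudokinase TRIB3 by 0.73 (SE 0.11), the mTORC1 inhibitor DDIT4 by 0.54 (SE 0.09), the pro-apoptotic factor DDIT3 (CHOP) by 0.45 (SE 0.13) and CEBPG, a dimer partner of ATF4, by 0.24 (SE 0.06). ATF3 at -0.53 (SE 0.21, adjusted p = 0.106), CEBPB at -0.15 (SE 0.17), SESN2 at -0.13 (SE 0.11) and the lipoprotein receptor VLDLR at 0.14 (SE 0.12) were not called. Of the 32 members 8 overlap a gene on the opposite strand, DDIT3 and ATF5 among them, and the strand setting of the counting is not given here, so their reads could be mixed.

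CHAC1 and ASNS had the most negative fitted values of the list and the fewest counts. CHAC1, an enzyme that degrades glutathione, had 7, 1 and 5 counts in replicate 1, against 30, 24 and 29 in replicate 2 and 19, 34 and 15 in replicate 3 (log2 fold change -2.27, SE 0.41, adjusted p = 0.00159). ASNS, which makes asparagine, had 7, 1 and 3 counts in replicate 1, against 28, 20 and 26 in replicate 2 and 14, 20 and 10 in replicate 3 (-2.16, SE 0.44, adjusted p = 0.00433). In both genes all replicate 1 libraries were below the others, but the sizes rest on few counts. The promoters of these genes hold the 8-letter element that ATF4 and C/EBP proteins bind as a pair, searched here as TGATGNAA on both strands (TTNCATCA on the other strand). The windows below lie within the 250 bases before the transcript start in RefSeq's promoter table and are shown because these members hold the element there. That start differs from the end of the gene in the gene annotation, and in 3 of the 4 (CHAC1, ASNS and AARS1) the element lies inside the annotated gene. Sequences are written 5′ to 3′ on the gene's strand with the element in capitals, and come from RefSeq on GRCh38.p14. They lie at chr15:40953236-40953295 (plus strand) for CHAC1, chr7:97872443-97872502 (minus strand) for ASNS, chr16:70289660-70289719 (minus strand) for AARS1 and chr1:212565190-212565249 (plus strand) for ATF3.
CHAC1: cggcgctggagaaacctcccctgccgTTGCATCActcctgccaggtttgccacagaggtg
ASNS: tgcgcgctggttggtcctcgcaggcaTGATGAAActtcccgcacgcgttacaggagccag
AARS1: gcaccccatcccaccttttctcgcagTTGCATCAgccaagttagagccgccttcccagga
ATF3: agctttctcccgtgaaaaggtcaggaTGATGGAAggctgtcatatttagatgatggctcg
The middle of the element lies 205, 64, 183 and 187 bases before the RefSeq start in these 4 genes. Of 28 tested list members with a promoter in the table, 6 (21.4%) held the element in the 300 bases around the start, against 170 of 10519 promoters of tested genes (1.62%) and 1003 of all 27305 (3.67%). Among the members that fell it was 5 of 21 (23.8%). The list was chosen for the ATF4 response, so these shares describe its make-up and say nothing about replicate 1. SLC3A2 and SLC7A1 held the element past the start, and CTH and PCK2 did not hold these letters in the window. A match is a description of the sequence and not a measured binding site.

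**Figure D2:**
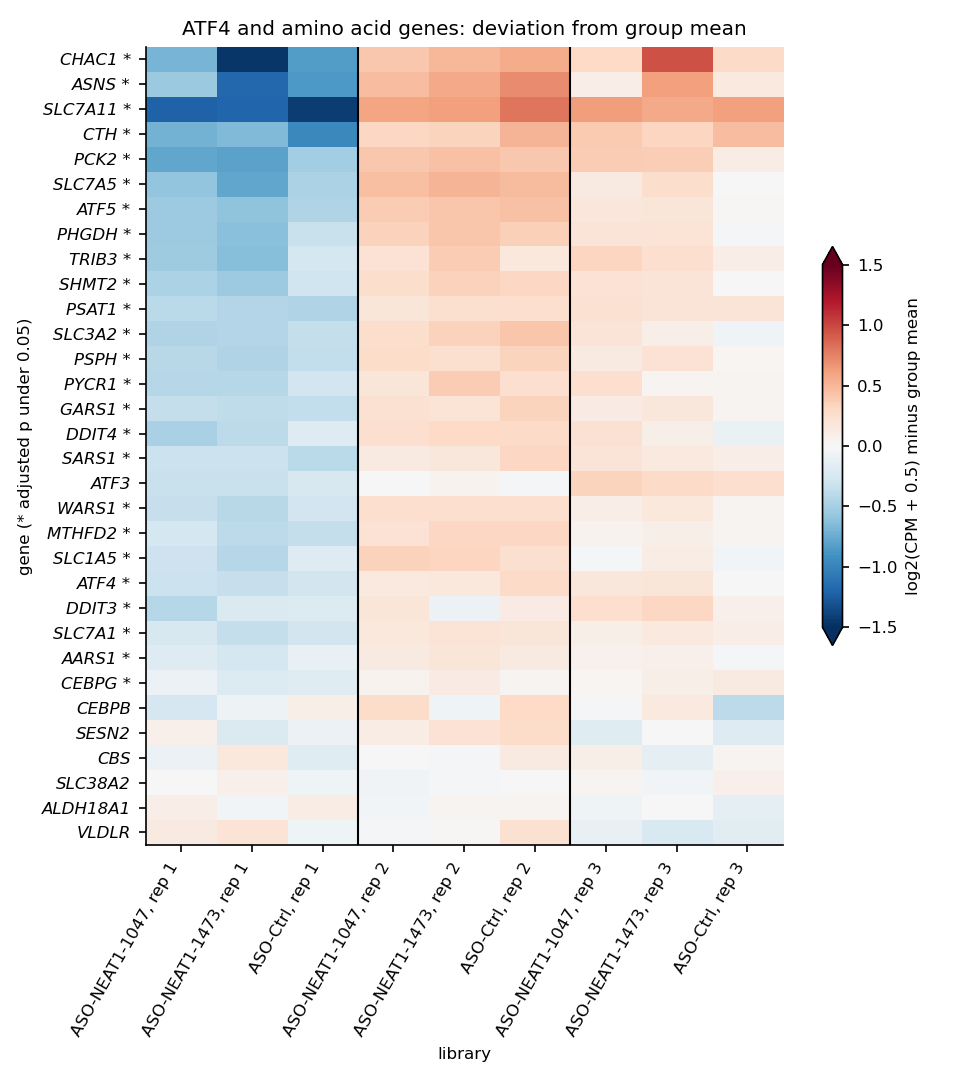
Deviation of each library from the mean of its group, as log2(CPM + 0.5), for the 32 tested members of the ATF4 and amino acid list; columns are the 9 libraries ordered by replicate number, rows run from the most negative fitted difference at the top, and an asterisk marks the 25 called genes. Replicate 1 columns are blue for every called member, and the other 6 columns are mostly white to red.

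The aminoacyl-tRNA synthetases, which load amino acids onto tRNAs, were taken as a whole family by symbol after the values of some had been seen. Of 20 cytosolic synthetase genes 12 fell and 0 rose, where 4.31% of all genes fell and 6.57% rose. Of the 12, 4 (GARS1, SARS1, WARS1 and AARS1) belong to the list above, and of the 16 other genes 8 fell. CARS1, for cysteine, fell by 0.79 (SE 0.07, adjusted p = 6.78e-07), MARS1, for methionine, by 0.73 (SE 0.07), and YARS1, for tyrosine, by 0.53 (SE 0.07). The synthetases for lysine (KARS1, 0.05) and arginine (RARS1, 0.09) were not called. Of 17 mitochondrial synthetase genes 1 fell (TARS2, -0.23) and 1 rose (YARS2, 0.29), shares near those of all genes. Their median was -0.05, against -0.21 for the cytosolic set. ASS1, the argininosuccinate synthase of arginine synthesis, was among the 10 largest falls: it held 3.74, 3.12 and 3.53 CPM in replicate 1, against 11.8, 11.6 and 11.96 CPM in replicate 2 and 12.1, 10.1 and 8.97 CPM in replicate 3 (-1.68, SE 0.15, adjusted p = 2.16e-06).

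Cytosolic ribosomal protein genes fell by small amounts in large numbers. Of 79 tested, 55 fell (69.6%, against 4.31% of all genes) and 0 rose, and the median log2 fold change was -0.22. In 58 replicate 1 was below both other replicates in every group, as it was for 12.1% of all genes. RPL13A held 596.1, 497.3 and 624.2 CPM in replicate 1, against 715.0, 665.3 and 738.9 CPM in replicate 2 and 857.5, 764.3 and 712.8 CPM in replicate 3 (-0.38, SE 0.07, adjusted p = 0.00267). RPL34 fell by 0.36 (SE 0.06, adjusted p = 0.000702). Together these genes took 2.82 to 3.09% of all counts in replicate 1 and 3.31 to 3.97% in replicates 2 and 3. The count was 5 without ASO-NEAT1-1047 replicate 1, 12 without ASO-NEAT1-1473 replicate 1, 36 without ASO-NEAT1-1473 replicate 3, 32 in the fit of all 24 libraries and 52 with the GC offset. Ribosomal protein genes have many processed pseudogenes, so reads could be split among copies.

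Genes of cholesterol synthesis, driven by the sterol-sensing factor SREBP2, were higher in replicate 1. The list median was 0.25; 9 of its 26 tested members rose, where 6.57% of all genes did, and 0 fell. HMGCS1, which makes the first committed precursor, held 104.5, 129.4 and 117.3 CPM in replicate 1, against 84.1, 90.8 and 90.1 CPM in replicate 2 and 71.1, 76.1 and 78.0 CPM in replicate 3 (0.51, SE 0.07, adjusted p = 0.000322). IDI1, an isomerase further along the pathway, rose by 0.55 (SE 0.06, adjusted p = 1.14e-05). In both genes every replicate 1 library lay above the other 6. The count was 5 without ASO-NEAT1-1047 replicate 1, 4 without ASO-NEAT1-1473 replicate 1 and 13 with the GC offset. Of 18 fatty acid synthesis genes 3 rose, ACSL1 by 0.33 (SE 0.09) and ME1 by 0.27 (SE 0.08) among them.

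Mitosis genes rose in part. The 39 mitosis and spindle genes had a median of 0.18, and 14 of them rose while 0 fell. CENPE, a kinetochore motor, held 275.4, 351.4 and 288.9 CPM in replicate 1, against 222.4, 220.7 and 237.2 CPM in replicate 2 and 184.1, 230.2 and 203.7 CPM in replicate 3 (0.49, SE 0.07, adjusted p = 0.000288). The spindle checkpoint kinase TTK rose by 0.45 (SE 0.07). The count was 4 without ASO-NEAT1-1047 replicate 1, 4 without ASO-NEAT1-1473 replicate 1, 9 without ASO-NEAT1-1047 replicate 3 and 8 with the GC offset; the list's median transcript GC was 43.2%, against 47.5% over all genes. Of 48 S-phase and DNA replication genes 5 rose (10.4%) and 1 fell (2.08%), shares near those of all genes (6.57% and 4.31%), RRM1 (ribonucleotide reductase) rising by 0.41 (SE 0.07) and the GINS complex member GINS4 falling by 0.27 (SE 0.05). The 5 became 1 without replicate 1 of ASO-NEAT1-1047 or of ASO-NEAT1-1473, 2 without replicate 3 of either, 8 without ASO-NEAT1-1047 replicate 2, 10 without ASO-Ctrl replicate 2 and 1 with the GC offset.

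Targets of p53, the DNA damage response factor, rose in 11 of 27 cases (40.7%, against 6.57% of all genes) and fell in 0 (median 0.15). The death receptor FAS rose by 0.68 (SE 0.11, adjusted p = 0.000653), at 17.1, 20.5 and 17.9 CPM in replicate 1, against 10.6, 13.4 and 13.3 CPM in replicate 2 and 9.33, 11.8 and 10.5 CPM in replicate 3. It overlaps ACTA2 on the opposite strand, so its reads could be mixed with those of that gene. BTG2, an antiproliferative gene, rose by 0.44 (SE 0.10, adjusted p = 0.00953). Without ASO-NEAT1-1047 replicate 1 the count was 5, without ASO-NEAT1-1473 replicate 1 it was 4, and with the GC offset it was 9. Of 31 interferon-stimulated genes 8 rose (25.8%) and 0 fell (median 0.20). HERC6, a ubiquitin ligase relative, rose by 0.68 (SE 0.18) and TRIM22, which overlaps TRIM5, by 0.51 (SE 0.15). The count of risen members was 3 without ASO-NEAT1-1047 replicate 1 and 2 without ASO-NEAT1-1473 replicate 1. With the GC offset 8 rose and 2 fell. Replicate 1 was higher than replicate 2 in 13 members, but against replicate 3 it was higher in 10 and lower in 5, and the summed level of 2295 to 2417 CPM in replicate 1 lay within the 2081 to 2458 CPM of replicates 2 and 3.

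Targets of YAP and TEAD, the transcription factors of the Hippo pathway, split: 7 of 23 fell (30.4%) and 5 rose (21.7%). Their median was -0.02. Over all genes 4.31% fell and 6.57% rose. The matricellular proteins CCN1 and CCN2 fell furthest. CCN1 held 13.4, 14.9 and 13.8 CPM in replicate 1, against 23.9, 24.98 and 27.7 CPM in replicate 2 and 33.3, 28.7 and 35.5 CPM in replicate 3 (-1.04, SE 0.13, adjusted p = 0.000104). CCN2 held 4.89, 7.17 and 6.09 CPM in replicate 1, against 9.69, 11.4 and 13.9 CPM in replicate 2 and 13.7, 13.2 and 13.2 CPM in replicate 3 (-1.05, SE 0.15, adjusted p = 0.000235). Both were lower in every replicate 1 library than in any other, while the membrane repair protein MYOF rose by 0.37 (SE 0.07) and the RNA-binding RBMS3 by 0.46 (SE 0.07). Fallen members numbered 4 without ASO-Ctrl replicate 1 and 3 without ASO-NEAT1-1047 replicate 1; risen ones numbered 1 without ASO-NEAT1-1047 replicate 1 and 2 without ASO-NEAT1-1473 replicate 1. In the list of matrix and adhesion genes 8 of 31 rose (25.8%) and 2 fell (6.45%, near the share of all genes). The integrin subunit ITGA5 rose by 0.63 (SE 0.12) and the laminin chain LAMA3 by 0.70 (SE 0.17), while COL1A1 fell by 0.56 (SE 0.13). The 8 became 3 without ASO-Ctrl replicate 1, 1 without ASO-NEAT1-1047 replicate 1 and 2 without ASO-NEAT1-1473 replicate 1.

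Stress and signalling lists had few called members, and several of their shares lay near those of all genes (6.57% higher and 4.31% lower). In hypoxia and glycolysis genes 3 of 40 rose (7.5%) and 3 fell (7.5%). HIF1A was 0.36 (SE 0.05) higher and the mitophagy receptor BNIP3 0.34 (SE 0.06) lower. Heat shock genes gave 3 risen of 26 (11.5%), HSPH1 by 0.35 (SE 0.06). Endoplasmic reticulum stress genes gave 4 risen (16.7%) and 1 fallen (4.17%) of 24, with XBP1 falling by 0.24 (SE 0.06). Of 19 NRF2 target genes 4 rose (21.05%) and 1 fell (5.26%), the gene that fell being SLC7A11. AKR1C2, an aldo-keto reductase with near-identical relatives, rose by 0.93 (SE 0.12, adjusted p = 9.15e-05). Immediate early genes gave 1 risen (3.23%) and 3 fallen (9.68%) of 31, EGR1 falling by 0.68 (SE 0.19). NF-kB targets gave 1 risen of 20 (5%) and lysosome genes 1 of 34 (2.94%).

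RNA-related lists differed in their shares, and several lay near those of all genes (6.57% higher and 4.31% lower). Of 21 nuclear and long noncoding RNAs 4 fell (19.05%, against 4.31% of all genes) and 0 rose, NEAT1 and PVT1 (-0.34, SE 0.08) being the largest. Paraspeckle protein genes gave 1 risen (3.125%) and 2 fallen (6.25%) of 32. RBM3 was at 0.29 (SE 0.05), and HNRNPA1 and HNRNPH3 were at -0.25 and -0.30 (SE 0.05 each). Of 25 snoRNA host genes 4 fell (16%), SNHG32 by 0.60 (SE 0.12). Splicing regulators rose in 6 of 57 (10.5%) and fell in 2 (3.51%), and with the GC offset 0 rose and 4 fell. Without 1 library at a time the 6 became 0 to 10. The count was 0 without replicate 1 or 3 of ASO-NEAT1-1047 or replicate 1 of ASO-NEAT1-1473. It was 2 without replicate 3 of ASO-NEAT1-1473, 3 without replicate 1 of ASO-Ctrl and 10 without replicate 2 of ASO-NEAT1-1047. Of 436 zinc finger genes with ZNF symbols 35 rose (8.03%) and 8 fell (1.835%), and with the GC offset 11 rose and 9 fell. The 35 became 3 without replicate 1 of ASO-NEAT1-1047 or of ASO-NEAT1-1473, 13 without ASO-NEAT1-1047 replicate 3 and 20 without ASO-NEAT1-1473 replicate 3; the 8 ranged from 0 to 9. RNA decay factors gave 3 risen (6.38%) and 3 fallen (6.38%) of 47 and microRNA processing genes 2 fallen of 38 (5.26%). Of 24 noncoding microRNA host genes, 22 circadian clock genes and 7 metallothionein and metal response genes 0 were called in either direction. Mitochondrially encoded mRNAs gave 1 risen of 13 (7.69%), and nuclear respiratory chain genes 1 risen (1.39%) and 3 fallen (4.17%) of 72. Histone genes gave 1 fallen of 38 (2.63%). Neuroendocrine genes gave 2 risen (25%) and 1 fallen (12.5%) of only 8, and markers of other cell types 1 fallen of 3 (COL1A1).

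**Figure D3:**
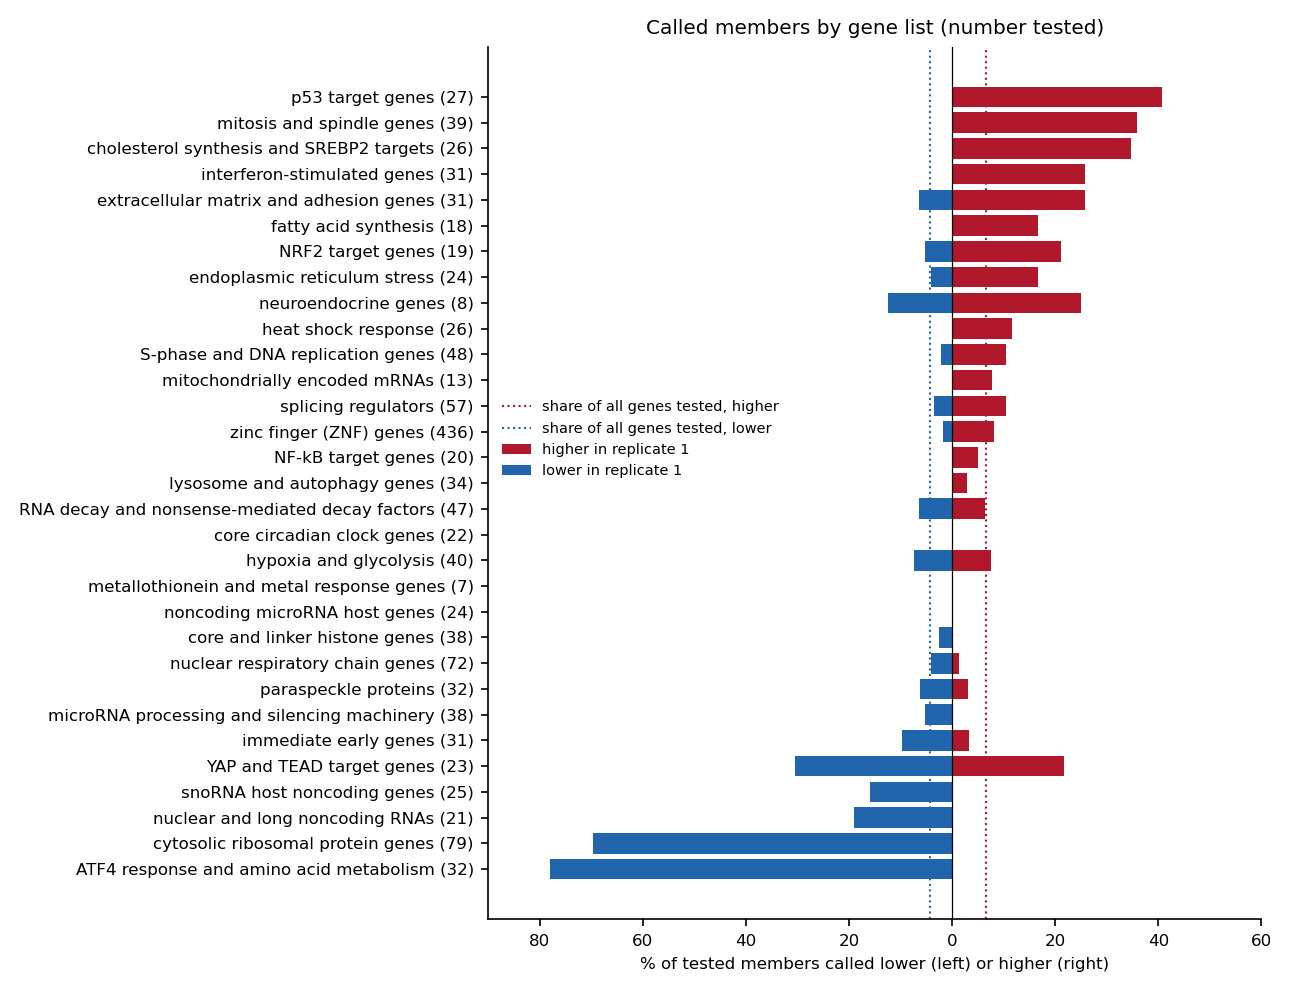
Share of tested members called higher (red, right) or lower (blue, left) in replicate 1, for each gene list with at least 7 tested members; the number tested is in brackets and the dotted lines are the shares over all genes tested, 6.57% higher and 4.31% lower. The ATF4 and ribosomal protein lists extend far to the left, and the p53, mitosis and cholesterol lists furthest to the right.

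Many of the largest changes lay outside these lists, among genes with a mean of at least 5 CPM in replicate 1 or in replicates 2 and 3. Some met that level on a single side, such as PRR9 (mean 1.14 against 6.87 CPM) and CDH17 (5.52 against 1.91 CPM). The genes were also chosen for replicate 1 lying on the same side of both others in every group, so that order is no separate result. Among the 10 largest falls, which include SLC7A11, ASS1 and CTH, PRR9, a proline-rich protein gene, held 0.67, 1.42 and 1.32 CPM in replicate 1, against 5.48, 5.19 and 6.42 CPM in replicate 2 and 6.93, 8.65 and 8.55 CPM in replicate 3 (-2.57, SE 0.26, adjusted p = 6.26e-06). SETBP1, EGFL6, P2RX3, ADTRP, LSP1 and RTL9, which overlaps AMMECR1, fell by 1.20 to 2.21. The 10 largest rises were smaller. The cadherin CDH17 held 4.70, 7.17 and 4.68 CPM in replicate 1, against 1.87, 1.88 and 1.57 CPM in replicate 2 and 1.64, 3.04 and 1.46 CPM in replicate 3 (1.52, SE 0.20, adjusted p = 0.000106). The transporter ABCA13 rose by 1.00 (SE 0.08, adjusted p = 6.78e-07), at 41.0, 60.7 and 42.4 CPM in replicate 1, against 22.99, 30.9 and 21.7 CPM in replicate 2 and 19.1, 25.6 and 22.3 CPM in replicate 3. For both risen genes the 3 replicate 1 libraries lay above the other 6, with ASO-NEAT1-1473 highest. The receptor kinases MET and ERBB3, the secreted hormone STC1, the complement factor CFI and the genes LRRC17, NHS, ANO3 and ARHGAP18 rose by 0.99 to 1.11. Of these 20 genes 8 also differed between replicates 3 and 2. SETBP1 (0.91), ADTRP (0.91), EGFL6 (0.60), LSP1 (0.44) and ERBB3 (0.81) were higher in replicate 3, and STC1 (-0.63), MET (-0.63) and ARHGAP18 (-0.70) were lower, at adjusted p of 1.40e-07 to 0.0244.

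Replicate 1 also stood apart in properties of the genes that moved, which the rule did not use. Of 2518 genes with transcript GC under 40%, 424 rose (16.8%) and 31 fell (1.23%), with a median of 0.10. Of 6053 genes at 50% GC and over 71 rose (1.17%) and 361 fell (5.96%), with a median of -0.09. Of 2602 genes spanning over 100 kb 297 rose (11.4%) and 88 fell (3.38%, near the share of all genes). Of 1658 long noncoding genes 10 rose (0.603%) and 85 fell (5.13%). Over all genes 6.57% rose and 4.31% fell. Replicate 1 libraries detected 21621 to 22724 genes and those of replicates 2 and 3 detected 23192 to 24483, without overlap (exact permutation p = 0.037, 0.241 after Benjamini-Hochberg adjustment over 13 library measures). The count-weighted GC content was 44.3 to 44.7% in replicate 1 and 44.6 to 45.1% in replicates 2 and 3 (exact permutation p = 0.0741, adjusted 0.241). The part of these measures in the calls was not tested beyond the GC offset.

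The replicate numbers 2 and 3 were not alike either. With the number as 3 levels, 1568 genes (10.8%; 6.65% higher in replicate 1) differed between replicates 1 and 2, 3554 (24.4%; 13.3% higher in replicate 1) between 1 and 3, and 1127 (7.75%) between 3 and 2, of which 553 (3.80%) were higher and 574 (3.95%) lower in replicate 3. The ATF4 list set replicate 1 apart from both others, with 24 members lower than in replicate 2 (median -0.62; 4.13% of all genes were lower) and 26 lower than in replicate 3 (median -0.50; 11.1% of all genes were lower), while 7 were lower in replicate 3 than in replicate 2 (median -0.13). S-phase genes followed replicate 3: 29 of 48 were lower in replicate 3 than in replicate 2 (median -0.27), 31 were higher in replicate 1 than in replicate 3 and 3 higher in replicate 1 than in replicate 2. For mitosis genes 20 of 39 were lower in replicate 3 than in replicate 2, and for ribosomal protein genes 0 of 79 differed between them. These 3 contrasts share libraries, so their counts are not independent of each other.

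Libraries of the same number deviated from their group means together. Across genes, the correlation of deviations between libraries of different groups was 0.17 to 0.50 for the 9 pairs with the same number and -0.43 to 0.02 for the 18 pairs with different numbers; deviations within a group sum to 0, which pulls the second set below 0. Each of the 9 libraries correlated best with one of its own number. The pairs of number 1 had a median of 0.41, those of number 2 a median of 0.18 and those of number 3 a median of 0.36. The replicate number took up 56.6% of the within-group variance of log2 CPM over all genes, with 33.3% of the within-group degrees of freedom. The step between replicate 1 and the others alone took up 36.7%, with 16.7% of them.

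**Figure D4:**
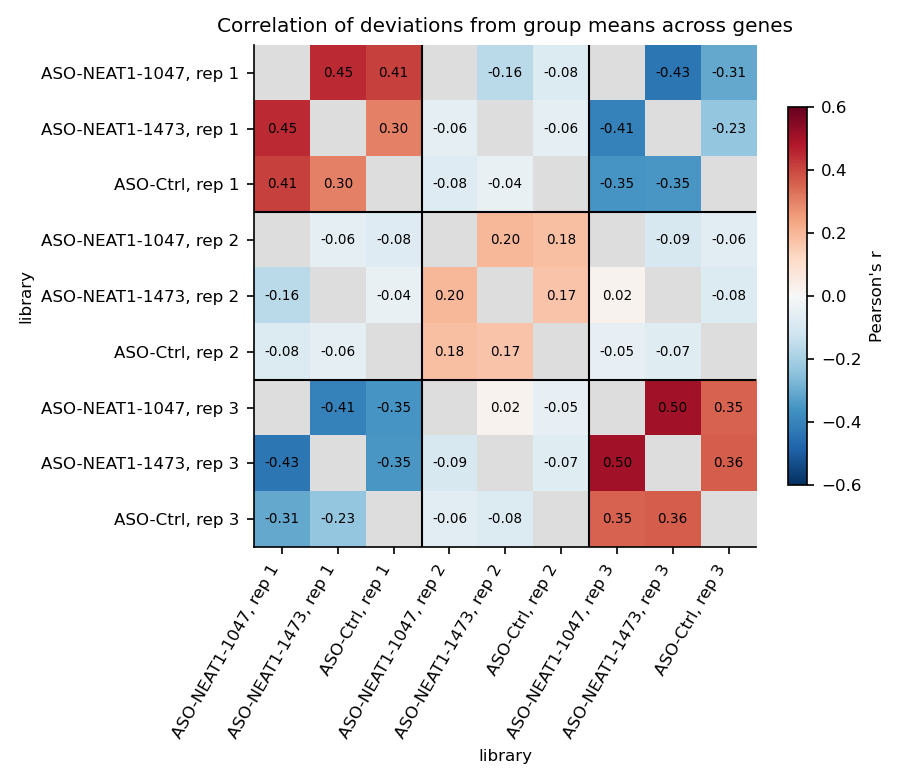
Pearson's r, across the 14549 genes tested, between the deviations of 2 libraries from their own group means (log2 CPM); libraries are ordered by replicate number, black lines divide the numbers, and grey cells are pairs of the same group, left out because their deviations sum to 0. The 3 blocks on the diagonal, which hold the pairs of the same number, are red (0.17 to 0.50), and the cells that pair a replicate 1 with a replicate 3 library are blue.

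The difference between replicate 1 and the others was not called as unequal among the 3 oligonucleotide groups for any gene. The test of the group by replicate 1 interaction had 3 residual degrees of freedom. It gave 0 calls in edgeR and 0 calls with a DESeq2 likelihood ratio test. In edgeR 585 genes had an unadjusted p under 0.05, a share under 0.05 of the 14549 tested. For the ATF4 list the median within-group difference was -0.59 in ASO-NEAT1-1047, -0.61 in ASO-NEAT1-1473 and -0.44 in ASO-Ctrl. For the ribosomal protein list it was -0.28, -0.22 and -0.16 in the same order. NEAT1 differed by -0.41, -0.26 and -0.63 (unadjusted p = 0.288 in the edgeR quasi-likelihood test of the interaction).

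The siRNA arm, whose 5 groups share no library with the oligonucleotide arm, has the same replicate numbers, with 5 libraries of replicate 1 and 10 of replicates 2 and 3. In 1 fit of all 24 libraries, replicate 1 gave 126 calls of 15869 in the siRNA arm (0.794%), 91 higher (0.573%) and 35 lower (0.221%). In the oligonucleotide arm the same fit gave 880 (5.55%), 505 higher (3.18%) and 375 lower (2.36%). Across 14493 genes the log2 fold changes of the arms had Pearson's r = 0.51 and Spearman's rho = 0.42, a description over genes that are not independent. Of the 1581 oligonucleotide-arm calls that were measured in both fits, 1389 (87.9%) had the same sign in the siRNA arm. The share of same signs over all genes is not given here, so that figure has no background beside it. Of the siRNA arm's 125 calls, 69 (55.2%) were called in the same direction in the oligonucleotide arm and 0 in the opposite one. Of all genes tested, 10.9% were called in the oligonucleotide arm. No list member of the ATF4 group was called in the siRNA arm except CHAC1 (-1.45, SE 0.34, adjusted p = 0.0342), though 29 of 32 were negative there and the median was -0.16. SLC7A11 was at -0.71 (SE 0.24, adjusted p = 0.18), CTH at -0.52 (SE 0.13, adjusted p = 0.0647), ATF4 at -0.18 (SE 0.06, adjusted p = 0.167) and NEAT1 at -0.22 (SE 0.14, adjusted p = 0.49). Other lists moved too, with siRNA-arm medians of 0.18 for cholesterol genes, 0.16 for S-phase genes, 0.15 for p53 targets and 0.13 for mitosis genes. Their medians in the oligonucleotide arm were 0.25, 0.07, 0.15 and 0.18. Ribosomal protein genes stood at -0.07 and nuclear respiratory chain genes at 0.06 in the siRNA arm, against -0.22 and -0.09. Over all genes the siRNA-arm median was 0.005.

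The test of the difference between arms made 0 calls in edgeR, with 1494 of 15869 genes at an unadjusted p under 0.05. In DESeq2 it made 33 calls, 27 higher in the oligonucleotide arm and 6 lower. For SLC7A11 the oligonucleotide arm's difference minus that of the siRNA arm was -1.24 (unadjusted p = 0.0109, adjusted p = 0.421), and for ASS1 it was -1.46 (unadjusted p = 0.000875, adjusted p = 0.34). PRR9 (-2.06, adjusted p = 0.00215), SETBP1 (-2.01, adjusted p = 0.0268), EGFL6 (-1.32, adjusted p = 0.0147) and AKR1C2 (1.04, adjusted p = 0.0324) were called in the siRNA arm in the same direction as in the oligonucleotide arm. The siRNA arm gave 449 calls without its 2 SFPQ knockdown groups and 576 without the filter on low counts.

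**Figure D5:**
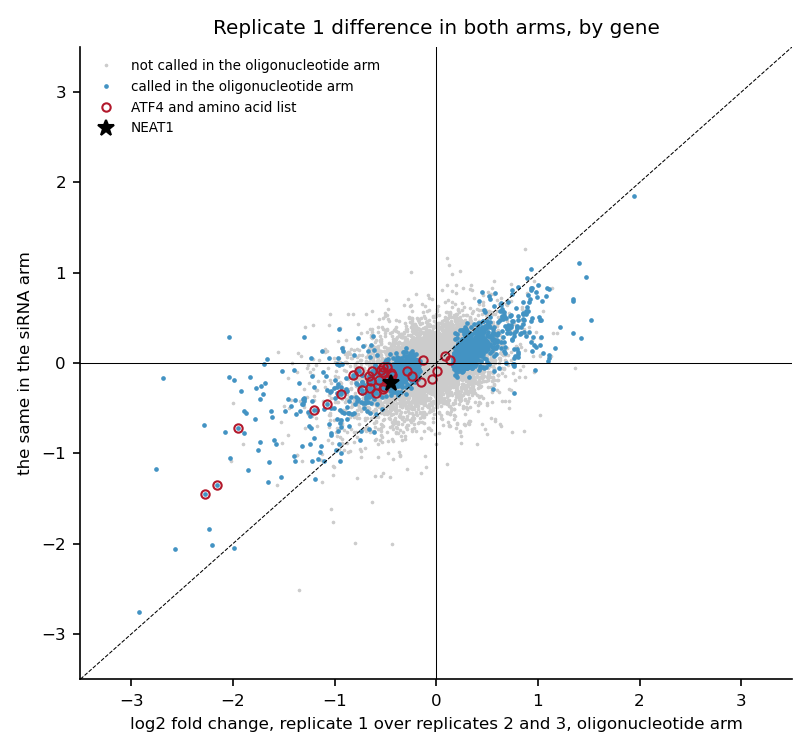
Log2 fold change of replicate 1 over replicates 2 and 3 in the oligonucleotide arm (horizontal) and in the siRNA arm (vertical), 1 point per gene; blue points are genes called in the oligonucleotide arm, red rings are the ATF4 and amino acid list, the star is NEAT1, the dashed line marks equal values, and 3 genes lie outside the axes. Most blue points share their sign between arms, and 29 of the 32 rings lie left of 0 on the horizontal axis, as do 29 below 0 on the vertical axis.

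The replicate number bears on the comparison for which the arm was made. Without a term for the number, 0 genes were called between the 2 NEAT1 oligonucleotides and the control oligonucleotide in edgeR, with 297 at an unadjusted p under 0.05. With the replicate number as a block, 5 were called, with 997 unadjusted, and with a replicate 1 term alone 0 were called, with 522 unadjusted. Of the 14549 genes tested, 297 and 522 are shares under 0.05, and 997 is a share above it. Of the 5 genes, 2 were higher with the NEAT1 oligonucleotides and 3 lower. Those named here, after their values were seen, are ZNF460 (0.58, adjusted p = 0.0237), which was higher, and LINC02154 (-0.38, adjusted p = 0.00164), LINC01235 (-0.35, adjusted p = 0.00164) and the metallothionein MT2A (-1.72, adjusted p = 0.0393; 0.80 CPM with NEAT1 oligonucleotides and 3.00 CPM with the control), which were lower. NEAT1 was at -0.24 (95% interval -0.41 to -0.07, unadjusted p = 0.0113, adjusted p = 0.631) with the block and at -0.26 (-0.65 to 0.13, unadjusted p = 0.165, adjusted p = 0.999) without it. The estimate moved little, its interval narrowed, and the difference was not called over all genes in either fit. By the values given above, NEAT1 was lower in ASO-NEAT1-1473 than in ASO-Ctrl at every replicate number. In the group labelled ASO-NEAT1-1047 it was higher than in ASO-Ctrl at numbers 1 and 2 and lower at number 3. Without ASO-Ctrl replicate 3, the unblocked comparison gave 20 calls, all higher with the NEAT1 oligonucleotides.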

How the data were processed

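Poly(A) RNA of 24 SBC-3 libraries was sequenced, and the authors deposited 1 table of raw read counts per gene and library, whose headers name featureCounts v2.0.3 of Subread. The submitters' processing notes also list cutadapt 4.2, STAR 2.7.5a, DESeq2 1.38.1 and build hg38; the annotation release, strand setting and treatment of multi-mapping reads are not stated in these sources. Groups and replicate numbers came from the sample titles.

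The 9 oligonucleotide libraries (9717221 to 14886353 counts) were fitted in edgeR 4.0.16 (R 4.3.3) with TMM factors, the edgeR filter on low counts by group and a robust quasi-likelihood model with terms for group and replicate 1; genes with a Benjamini-Hochberg adjusted p under 0.05 over all 14549 tested were called. CPM values use TMM-scaled library sizes. Fold changes and SE come from this fit, and fold changes are replicate 1 over replicates 2 and 3. Further fits used the number as 3 levels, its interaction with group, and all 24 libraries. Alternatives used DESeq2 1.42.0, limma 3.58.1, other scalings and filters, a per-library GC offset (lowess span 0.3) and left-out libraries. Single library values were compared by exact permutation within groups. The fits were tested on simulated data.

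The numbers were taken to pair the samples because deviations of every same-numbered pair correlated above 0.1 (lowest 0.173); this comes from the data, since the labels do not state it.

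The members and the 32 gene lists were chosen with earlier results of these data known. Genes named were NEAT1, the 10 largest rises and falls among called genes of at least 5 CPM with replicate 1 on the same side of both others in every group, at most 2 called members per list in each direction (the largest, at 5 CPM or more), and MALAT1, SFPQ, NONO and PSPC1. All members of the ATF4 list and the tRNA synthetases were added after their values were seen. The split of the counts by NEAT1 transcript was not analysed here. Intervals cover the spread between libraries taken as independent, and not the spread between replicate numbers. A few genes are not reported here.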

Additional observations from a re-analysis of the deposited data

How the results depend on the processing

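The count of genes called in replicate 1 was 1583 and stayed within 1.5 times under other scalings, filters and tests (1268 to 1828). It was 880 in the fit of all 24 libraries, 2747 without replicate 2 and 1762 without replicate 3. Without a whole group it was 381 (ASO-NEAT1-1047), 360 (ASO-NEAT1-1473) and 1616 (ASO-Ctrl). The range was 311 to 2747 over all settings that left out a library, a group or a number. Such fits have fewer degrees of freedom, and the part of this in the counts was not tested. NEAT1 ranged from -0.34 to -0.53 over the left-out libraries and kept its direction in all 23 alternatives. It lost its call in the fit of all 24 libraries (-0.44), without the group term (-0.46), without the ASO-NEAT1-1047 group (-0.46), without ASO-Ctrl replicate 1 (-0.34) and without ASO-NEAT1-1047 replicate 1 (-0.45). For the 88 other named genes, 1605 of the recomputed values kept direction and call, 412 lost the call, 3 gained it and 1 reversed: MALAT1 without replicate 2, at -0.068, uncalled; without replicate 3 it was called, at 0.36. The interaction with group gave 1 call without the low-count filter; the siRNA arm gave 449 and 576 calls, as above; and DESeq2 gave 33 calls between arms. The last test and the DESeq2 likelihood ratio test were chosen after seeing the data. The unblocked comparison of NEAT1 oligonucleotides with control gave 0 calls, 0 to 20 over left-out libraries and 5 with the replicate block; the block changed no other call, since the other comparisons are of the number itself. The cause of these shifts was not tested. At these depths a gene at a few counts, such as CHAC1 or ASNS, gives a direction but an imprecise size.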
